A study of Mus musculus with 11 samples.

Results

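Genes of blood vessel endothelium and the β-cell ligand that acts on it were followed in RNA of sorted β-cells. The 8 genes were taken by name from the 34728 genes kept from the deposited table. They are the endothelial genes *Esm1*, *Plvap*, *Pecam1*, *Eng*, *Kdr*, *Flt1* and *Cdh5*, and *Vegfa*, which β-cells themselves express. They were chosen with the values of these libraries known, so their differences between groups are given as a description and no test of them is reported.

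Islets are densely supplied with fenestrated capillaries, and β-cells secrete vascular endothelial growth factor A (VEGF-A, encoded by *Vegfa*), which maintains these vessels. VEGF-A binds the receptor tyrosine kinases VEGFR2 (encoded by *Kdr*), which carries most of its signal in endothelial cells, and VEGFR1 (encoded by *Flt1*), which holds much of the ligand back. Endothelial cells exposed to VEGF-A make more endocan, the secreted proteoglycan encoded by *Esm1*, and fenestrated endothelium carries the diaphragm protein encoded by *Plvap*.

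All mice were 8 weeks old, on a mixed C57BL/6 x 129SV background, and carried RIP-Cre (Cre under a rat insulin promoter) with a Cre-activated green fluorescent protein at *Rosa26*, the WT littermates included. The 3 WT libraries came from mice with intact *Raptor*, the 4 diabetic βRapKOGFP libraries from mice that lacked *Raptor* in RIP-Cre cells and had no insulin pellet, and the 4 euglycemic βRapKOGFP libraries from mutant mice that carried an insulin pellet for 4 weeks. Islets were dispersed and GFP-positive cells were collected by flow cytometry, so that endothelial cells, which do not use the insulin promoter, should lie outside the gate. The study's methods describe the sorted cells as highly but not fully pure, so some cells of other types could be present. Only male animals were used, and whether a library came from 1 mouse or from pooled mice is not given in the sources used here. P values below therefore measure only the spread between these libraries. Levels are FPKM, in which fragments of a gene are divided by transcript length and by the mapped total.

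The β-cell label was borne out by *Ins1*, which lay between 47730 and 101800 FPKM in every library. *Rptor*, the targeted gene, had 0.948, 1.36 and 1.79 FPKM in WT, 0.485 to 0.938 in diabetic and 0.423 to 0.622 in euglycemic libraries. Fragment totals inferred from the steps between low FPKM values were 9498728 to 16642471 per library. Diabetic replicate 1 stood apart from the other 10 libraries. It had 25711 genes above 0, against 13095 to 17329 in the others, at an ordinary depth of 10772083 fragments. In it alone 6547 genes were above 0, against 18 to 102 in any other library, and it held the highest value of 42.9% of all genes above 0 in some library. Differences between diabetic and other libraries in the 8 genes are therefore given with and without it. Euglycemic replicate 4 had the fewest fragments and the fewest genes above 0.

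The 250 bases before the annotated start are shown for the members with a RefSeq promoter among the endothelial genes, because most of these genes were higher in the same libraries. A promoter was matched for 5 of the 8 genes (GRCm38.p6), and that of *Vegfa* is not shown. Capitals mark the core that ETS transcription factors bind, GGAA or TTCC on the other strand.
Esm1, chr13:113209409-113209658, plus strand: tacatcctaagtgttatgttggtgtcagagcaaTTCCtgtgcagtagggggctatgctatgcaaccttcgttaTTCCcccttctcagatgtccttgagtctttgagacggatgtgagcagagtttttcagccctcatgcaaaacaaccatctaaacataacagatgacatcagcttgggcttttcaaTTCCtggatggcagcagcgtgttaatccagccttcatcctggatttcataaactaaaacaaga
Eng, chr2:32646345-32646594, plus strand: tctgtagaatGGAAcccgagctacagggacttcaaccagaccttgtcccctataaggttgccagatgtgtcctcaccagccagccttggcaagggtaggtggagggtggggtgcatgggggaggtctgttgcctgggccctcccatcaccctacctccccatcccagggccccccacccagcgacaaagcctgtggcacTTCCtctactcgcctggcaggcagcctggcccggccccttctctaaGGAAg
Kdr, chr5:75978456-75978705, minus strand: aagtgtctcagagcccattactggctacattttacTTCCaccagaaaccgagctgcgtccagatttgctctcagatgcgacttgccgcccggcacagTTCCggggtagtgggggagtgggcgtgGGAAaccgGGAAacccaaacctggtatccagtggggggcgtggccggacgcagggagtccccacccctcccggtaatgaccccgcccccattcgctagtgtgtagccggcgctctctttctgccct
Flt1, chr5:147726012-147726261, minus strand: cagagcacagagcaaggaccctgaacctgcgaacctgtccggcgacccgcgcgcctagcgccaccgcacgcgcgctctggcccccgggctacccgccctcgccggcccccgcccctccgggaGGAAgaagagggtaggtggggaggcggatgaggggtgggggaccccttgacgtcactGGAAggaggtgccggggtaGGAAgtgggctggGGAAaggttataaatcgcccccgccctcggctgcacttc
The core occurred 3 times before *Esm1* and *Eng* and 4 times before *Kdr* and *Flt1*, and the median over 32851 promoter windows of the same length was 3.0. It was present in 93.4% of these windows, so its presence is not particular to these genes. The longer sequence CGGAAG, searched on both strands and containing the core, was in none of these 4 windows and in 13.6% of all. The start of *Kdr* used by RefSeq lies 3 bases from the one in the GENCODE annotation, and the other starts coincide.

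*Esm1*, on chromosome 13 of GRCm38 from 113209659 to 113218098 (ENSMUSG00000042379), has 1 annotated transcript of 2097 bases in 3 exons. Its FPKM was 0, 0.361 and 0 in WT libraries 1 to 3. It was 4.17, 2.44, 2.76 and 1.84 in diabetic libraries 1 to 4. It was 0, 0.353, 0.412 and 0 in euglycemic libraries 1 to 4. Every diabetic library therefore lay above every WT and every euglycemic library. The lowest diabetic value was 1.84 and the highest value elsewhere 0.412. The depth places about 9.0 fragments behind the WT value, 48.0 to 94.1 behind the diabetic values and 11 and 13 behind the euglycemic values above 0. The means were 0.120 ± 0.209 (SD, n = 3), 2.80 ± 0.985 (SD, n = 4) and 0.191 ± 0.222 (SD, n = 4). On the log2(FPKM + 1) scale, which understates the change of low genes, the diabetic minus WT difference was 1.74 with a standard error of 0.239, and 1.58 without diabetic replicate 1. The diabetic minus euglycemic difference was 1.66 with a standard error of 0.221, and 1.5 without that library. Between euglycemic and WT libraries the difference was 0.0854 with a standard error of 0.239, and the values overlapped. In bulk RNA, fewer cells of a type and less RNA per cell cannot be told apart, which holds for all the endothelial genes here.

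*Plvap*, on chromosome 8 from 71497765 to 71511752 (ENSMUSG00000034845), reached the highest level of the endothelial genes described. Its FPKM was 0, 1.38 and 0.0732 in WT libraries 1 to 3. It was 39.9, 6.14, 6.36 and 14.0 in diabetic libraries 1 to 4. It was 0.417, 1.57, 1.82 and 0 in euglycemic libraries 1 to 4. The diabetic libraries again lay above all others, and replicate 1 alone held 60.1% of their summed level. The diabetic mean was 16.6 ± 16.0 (SD, n = 4) with that library and 8.84 ± 4.49 (SD, n = 3) without it, against 0.484 ± 0.776 (SD, n = 3) in WT and 0.951 ± 0.880 (SD, n = 4) in euglycemic libraries. The diabetic minus WT difference in log2(FPKM + 1) was 3.29 with a standard error of 0.567, and 2.76 without diabetic replicate 1. The diabetic minus euglycemic difference was 2.90 with a standard error of 0.525, and 2.37 without it.

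**Figure D1:**
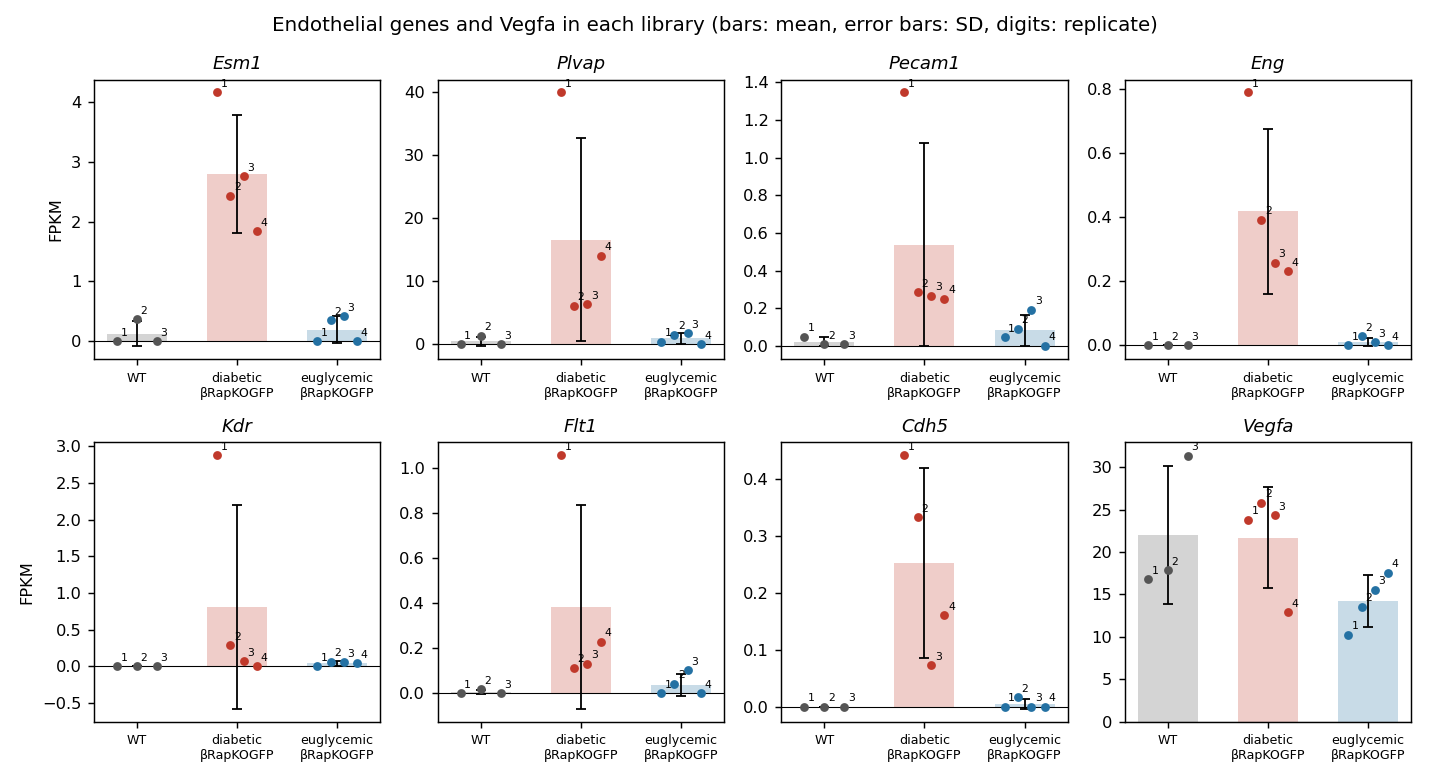
FPKM (vertical axes, a separate linear scale for each gene) of the 7 endothelial genes and Vegfa in WT (n = 3), diabetic (n = 4) and euglycemic (n = 4) libraries. Bars are means, error bars are SD, points are libraries and digits are replicate numbers. Diabetic replicate 1 holds the highest value of all 7 endothelial genes, as of 42.9% of all genes above 0 in some library. Vegfa is spread from 12.9 to 25.8 FPKM over the diabetic libraries.

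The genes of endothelial cell contacts were far lower. *Pecam1* (chromosome 11 from 106654217 to 106750628, ENSMUSG00000020717) encodes CD31, an adhesion molecule of endothelial junctions that blood cells also carry. Its FPKM was 0.0487, 0.00939 and 0.00822 in WT, 1.35, 0.285, 0.266 and 0.251 in diabetic, and 0.0469, 0.0901, 0.193 and 0 in euglycemic libraries. Every diabetic library lay above all others, while WT and euglycemic values overlapped. The 3 diabetic libraries other than replicate 1 were close to each other at 0.268 ± 0.0169 (SD, n = 3). *Cdh5* (chromosome 8 from 104101625 to 104144511, ENSMUSG00000031871) encodes VE-cadherin, the cadherin of endothelial adherens junctions. It was listed at 0 in all 3 WT libraries, at 0.443, 0.333, 0.0726 and 0.161 FPKM in diabetic, and at 0, 0.0169, 0 and 0 in euglycemic libraries. Its diabetic values rest on about 4.0 to 19.1 fragments and its euglycemic value above 0 on about 1.0.

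*Eng* (chromosome 2 from 32646595 to 32682669, ENSMUSG00000026814) encodes endoglin, a co-receptor for ligands of the TGF-β family on endothelium. It was listed at 0 in every WT library, at 0.788, 0.392, 0.257 and 0.231 FPKM in diabetic libraries, and at 0, 0.0276, 0.00910 and 0 in euglycemic libraries. Every diabetic library was above all others, on about 9.8 to 29.0 fragments. Of the exon bases of *Eng*, 1.5% overlap *Fpgs* on the opposite strand. The other members share no exon bases with another gene.

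The receptors for VEGF-A differed from each other in their pattern. *Flt1* (chromosome 5 from 147561604 to 147726011, ENSMUSG00000029648) had 0, 0.0175 and 0 FPKM in WT, 1.06, 0.114, 0.131 and 0.229 in diabetic, and 0, 0.0421, 0.102 and 0 in euglycemic libraries. Its diabetic and euglycemic libraries were parted by a narrow gap, between 0.102 and 0.114. *Kdr* (chromosome 5 from 75932827 to 75978458, ENSMUSG00000062960) was listed at 0 in every WT library, at 2.88, 0.286, 0.0675 and 0 in diabetic, and at 0, 0.0629, 0.0552 and 0.0436 in euglycemic libraries. It is the endothelial gene of the 7 whose diabetic and euglycemic values overlapped. Diabetic replicate 1 had about 183.9 *Kdr* fragments and diabetic replicate 4 had none, although replicate 4 held the second highest *Plvap* value. Leaving out replicate 1 took the diabetic minus WT difference of *Kdr* in log2(FPKM + 1) from 0.60 to 0.15.

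For the 5 lower endothelial genes together, the diabetic minus WT difference in log2(FPKM + 1) was 0.53 for *Pecam1*, 0.49 for *Eng*, 0.60 for *Kdr*, 0.41 for *Flt1* and 0.32 for *Cdh5*. Without diabetic replicate 1 it was 0.31, 0.37, 0.15, 0.20 and 0.24 in the same order. The diabetic minus euglycemic differences were 0.45, 0.47, 0.55, 0.37 and 0.31, and without that library 0.23, 0.36, 0.10, 0.16 and 0.24. All stayed above 0. Both comparisons share the diabetic libraries, so they do not support each other. The plot of differences with and without diabetic replicate 1 shows that of the endothelial genes *Kdr* lost the largest share of its difference and *Esm1* the smallest.

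**Figure D2:**
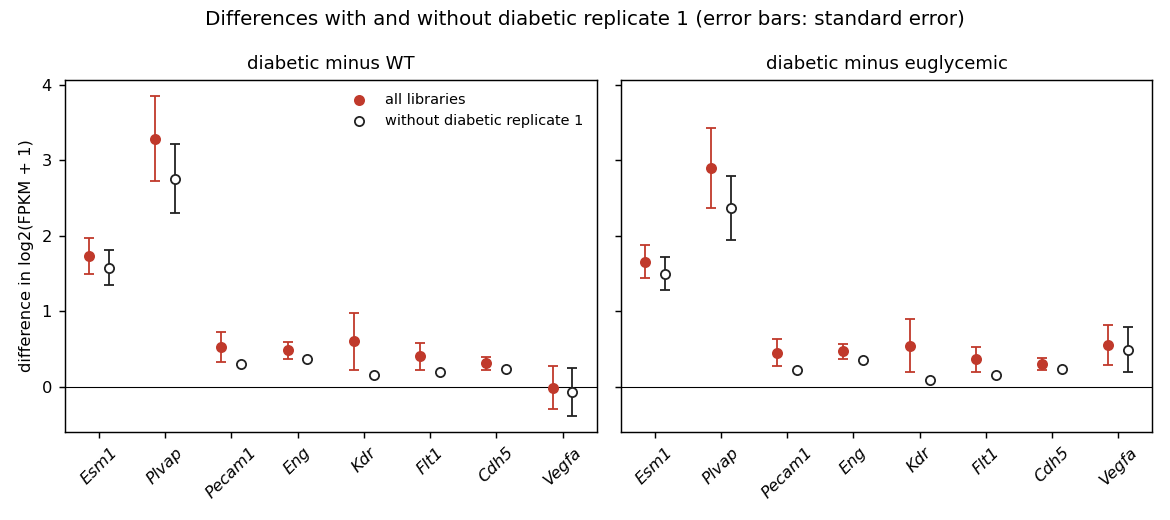
Difference in log2(FPKM + 1) for each gene, diabetic minus WT (left) and diabetic minus euglycemic (right). Filled points use all libraries and open points leave out diabetic replicate 1. Error bars are limma standard errors, from the fit without a filter for the filled points of the 5 lower endothelial genes, whose open points have none. Plvap falls from 3.29 to 2.76 and Kdr from 0.60 to 0.15 in the left panel, and Vegfa lies near 0 there.

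In 6 of the 7 endothelial genes every diabetic library was above every WT and euglycemic library, the exception being *Kdr*. The same 6 kept that order without diabetic replicate 1. Among the 27403 genes above 0 in at least 1 library, 0.963% had this order, and 1.17% had it without that library. All 7 were highest in diabetic replicate 1, as were 42.9% of all genes. The genes were chosen with these values known, so nothing is read from the counts.

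Only 3 of the 8 genes, *Esm1*, *Plvap* and *Vegfa*, had 3 or more libraries with an FPKM of 1 or more and so entered the limma fit of 11251 genes. *Esm1* did so through its diabetic libraries alone. The fit covers these 3 as well, and no test of them is read from it. A gene was called differentially expressed there at a Benjamini-Hochberg adjusted p of 0.05 or less and a change of 1.5-fold or more. This held for 0.969% of the genes fitted in diabetic against WT, 0.551% in euglycemic against WT and 0.00889% in diabetic against euglycemic libraries. Without diabetic replicate 1 it held for 0.397%, 0.451% and 0%. The members that were fitted are counted in these shares, and their calls are not reported. Since the genes were chosen with these values known, nothing about the members is read from the shares. The unadjusted p was under 0.05 for 11.9% of the genes fitted in diabetic against WT, 13.9% in euglycemic against WT and 20.6% in diabetic against euglycemic libraries.

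Because FPKM is scaled by transcript length, levels of different genes in the same library can be set side by side. In diabetic libraries 1 to 4 the level of *Plvap* was 29.6, 21.5, 23.9 and 55.8 times that of *Pecam1*. In the 3 euglycemic libraries where *Pecam1* was above 0 it was 8.90, 17.4 and 9.42 times. In WT libraries 1 to 3 it was 0, 147 and 8.91 times, with at most about 2.3 *Pecam1* fragments behind each ratio, and these ratios spanned those of both other groups. *Esm1* was 3.09, 8.55, 10.4 and 7.33 times *Pecam1* in diabetic libraries 1 to 4, and *Kdr* was 2.14, 1.0, 0.254 and 0 times. The endothelial genes therefore did not keep fixed proportions among the diabetic libraries. Among them replicate 1, the highest in each gene, had the lowest *Esm1* and the highest *Kdr* relative to *Pecam1*. The ratios of diabetic libraries 2 to 4 rest on about 9.6 to 12.7 *Pecam1* fragments, and those of replicate 1 on about 49.9.

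A further list of 30 endothelial genes, such as *Tie1*, *Tek*, *Vwf*, *Erg* and *Emcn*, holds none of the 7. Its summed level was 5.61 to 8.60 FPKM in WT, 37.2 in diabetic replicate 1, 8.99 to 13.9 in the other diabetic libraries, and 9.45 to 14.9 in euglycemic libraries. The summed level of the 7 genes was 0.0487 to 1.77, 50.6, 9.91 to 16.7, and 0.0436 to 2.59 FPKM in the same sets. The sum of the 30 overlapped between euglycemic libraries and diabetic libraries 2 to 4. Most of it in WT and euglycemic libraries came from *Ramp2*, *Rasip1* and *Esam*, which were at 1 FPKM or more in every library. The other 27, a split made after the values were seen, summed to 1.49, 1.98 and 1.06 FPKM in WT, 24.8, 4.41, 4.39 and 3.6 in diabetic, and 2.63, 2.89, 2.96 and 2.24 in euglycemic libraries. In these 27 every diabetic sum was above every other sum, with or without diabetic replicate 1. Of the 30 genes, 27 were highest in diabetic replicate 1, as were 42.9% of all genes above 0 in some library. In 2, *Ets1* and *Ecscr*, every diabetic library was above every other library, as in 0.963% of all genes above 0. The number of the 30 above 0 was 9 to 16 in WT, 29 in diabetic replicate 1, 14 to 20 in the other diabetic libraries and 6 to 20 in euglycemic libraries. Single genes of the list differed. *Emcn*, for a sialomucin of capillary and venous endothelium, had 0, 0.129 and 0 FPKM in WT, 1.99, 0.188, 0.521 and 0.222 in diabetic, and 0, 0.186, 0.255 and 0 in euglycemic libraries. *Ecscr* was listed at 0 in WT, had 1.36, 0.272, 0.289 and 0.214 FPKM in diabetic and 0.213, 0, 0 and 0 in euglycemic libraries. *Sox7* and *Sox18*, for transcription factors of endothelium, had at most 0.682 and 0.646 FPKM in diabetic libraries 2 to 4, but each was listed at 0 in 1 of them. Other genes were at or near 0 outside diabetic replicate 1. *Erg* and *Aplnr* were listed at 0 in the 10 other libraries, *Tie1* and *Vwf* were at 0 in the 3 other diabetic libraries, and *Tek* reached at most 0.0397 FPKM.

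Only *Esam*, *Rasip1* and *Ramp2* of the 30 entered the limma fit, and none was differentially expressed in any comparison. At an unadjusted p under 0.05 there was 1 of the 3 in diabetic against WT, 1 in euglycemic against WT and 0 in diabetic against euglycemic libraries (11.9%, 13.9% and 20.6% of all genes fitted). *Ramp2*, which encodes a partner of the adrenomedullin receptor, had 2.56, 1.21 and 1.13 FPKM in WT, 4.00, 2.20, 3.53 and 2.84 in diabetic, and 6.20, 7.28, 3.48 and 2.73 in euglycemic libraries. It was highest in euglycemic libraries, with a euglycemic minus WT difference of 1.13 in log2(FPKM + 1) (standard error 0.299, adjusted p = 0.14 from limma). *Esam*, for a junction adhesion molecule, was spread over 1.60 to 2.58 FPKM in WT, 1.07 to 4.33 in diabetic and 1.26 to 2.61 in euglycemic libraries. *Rasip1* had 1.34 to 2.70, 1.13 to 4.06 and 2.1 to 3.12 FPKM. *Nos3*, for endothelial nitric oxide synthase, had 0.203 to 0.976, 0.517 to 0.620 and 0.277 to 1.04 FPKM. These 4 genes were above 0 in every WT library, where *Cdh5*, *Eng* and *Kdr* were listed at 0.

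**Figure D3:**
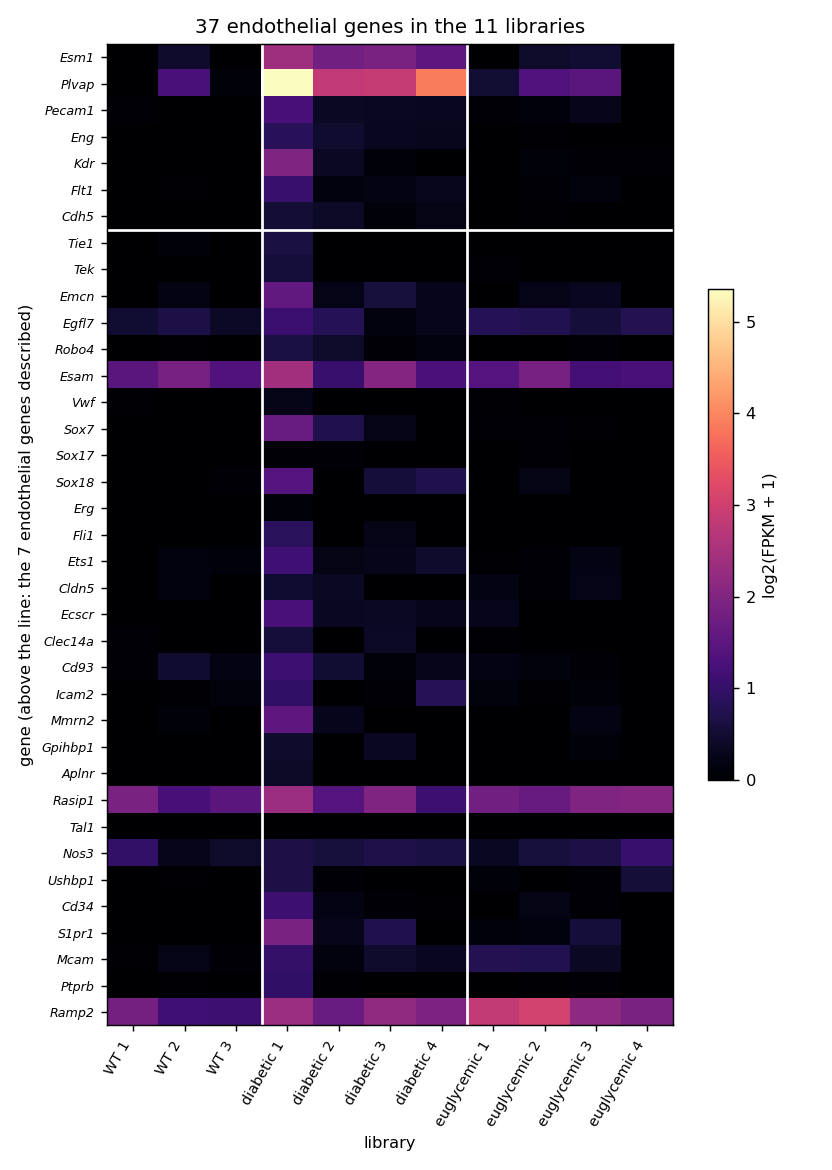
Level of 37 endothelial genes (rows, in log2(FPKM + 1), colour scale) in the 11 libraries (columns, grouped by white lines). The 7 genes described are above the horizontal line and the 30 further genes below it. Most rows are brightest in diabetic replicate 1, Esm1 and Plvap are bright in all 4 diabetic libraries, and Esam, Rasip1 and Ramp2 are present in every library.

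Summed markers of cells that accompany vessels were also highest in diabetic replicate 1. The summed level of 8 mural cell genes, of which *Rgs5* and *Acta2* had the highest means, was 0 to 0.145 FPKM in WT, 8.93 in diabetic replicate 1, 0.709 to 1.81 in the other diabetic libraries and 0.147 to 0.780 in euglycemic libraries. Of these 8, 6 were listed at 0 in every WT library. *Rgs5* had 2.94, 0.572, 0.0934 and 0.883 FPKM in diabetic libraries 1 to 4, and *Acta2* had 2.87, 0.172, 0 and 0. The 6 stellate cell genes summed to 18.2 FPKM in diabetic replicate 1, 6.34, 0.982 and 0.0600 in diabetic libraries 2 to 4, at most 0.496 in WT and at most 0.245 in euglycemic libraries. All 6 were highest in diabetic replicate 1, *Dcn* at 7.58 and *Col3a1* at 3.83 FPKM, as were 42.9% of all genes above 0 in some library. In diabetic replicate 4 the stellate genes were near 0 while *Plvap* was 14.0 FPKM. The part of these cell types in the endothelial values was not tested.

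**Figure D4:**
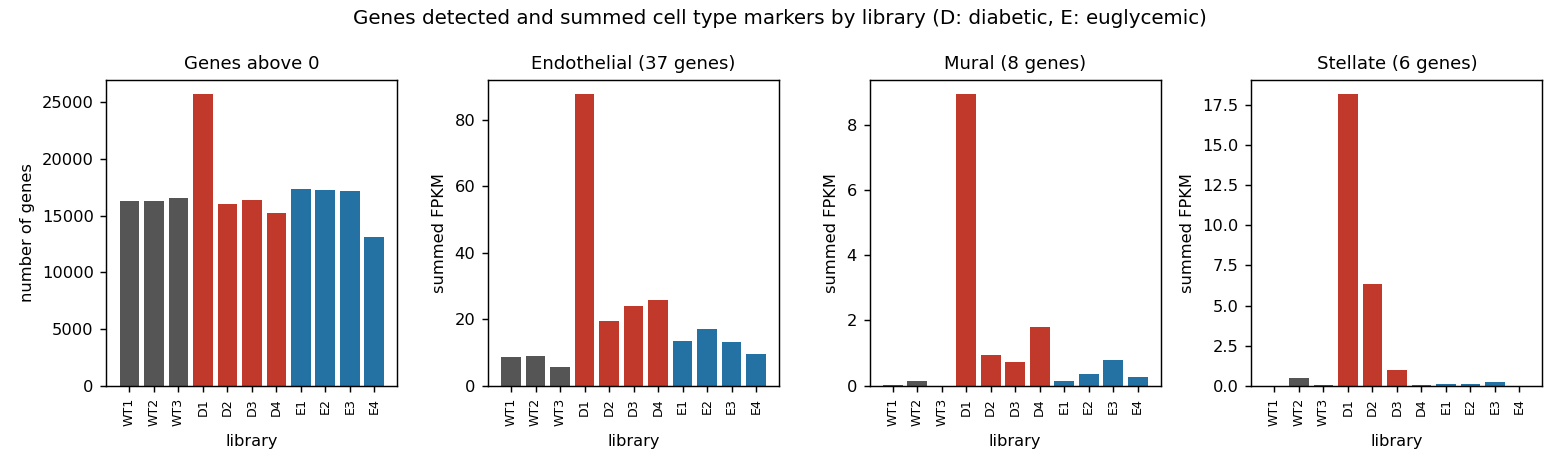
Number of genes above 0 and summed FPKM of endothelial (37), mural (8) and stellate (6) genes in each library (WT; D, diabetic; E, euglycemic; digits are replicates). Diabetic replicate 1 is highest in all 4 panels, with 25711 genes above 0 and 87.7 FPKM of endothelial genes. The other diabetic libraries have 19.3 to 25.7 FPKM of endothelial genes against 5.69 to 8.88 in WT and 9.50 to 17.1 in euglycemic libraries. This sum includes the endothelial genes described, which were chosen with these values known. The 30 further genes alone sum to 8.99 to 13.9 FPKM in the other diabetic libraries. In euglycemic libraries these 30 sum to 9.45 to 14.9 FPKM, which overlaps, and in WT to 5.61 to 8.60 FPKM.

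Of 9 leukocyte genes, 6 were highest in diabetic replicate 1, as were 42.9% of all genes above 0 in some library. *Lyz2*, a lysozyme gene of myeloid cells, had 59.4, 13.2, 1.20 and 0 FPKM in diabetic libraries 1 to 4, at most 0.287 in WT and at most 3.07 in euglycemic libraries. *Adgre1* and *Csf1r*, of macrophages, had 1.13 and 1.79 FPKM in diabetic replicate 1 and at most 0.170 and 0.436 elsewhere. The leukocyte genes summed to 41.5 to 56.5 FPKM in WT, 75.2 to 198.0 in diabetic and 56.5 to 124.7 in euglycemic libraries. Most of it was *C1qa*, a complement gene at 33.3 to 41.4, 74.3 to 196.0 and 53.8 to 123.9 FPKM. *C1qb*, another complement gene, had at most 0.27 FPKM in WT, 8.5, 5.9, 0.33 and 0 in diabetic, and 0, 0, 0.18 and 3.6 in euglycemic libraries. *C1qa* was 123.9 FPKM in euglycemic replicate 2, where *C1qb* was listed at 0, so the sum is not read as a leukocyte level. *Ptprc*, the pan-leukocyte gene, was at 0.686 FPKM in diabetic replicate 1 and listed at 0 elsewhere. *Cd79a*, a B cell gene, fell in both mutant groups (log2 differences of −3.12 and −3.16 against WT, adjusted p = 0.000735 and 0.000626 from limma). Acinar genes summed to 2.48 to 30.7 FPKM in WT, but to 1837, 866, 974 and 10.4 in diabetic libraries 1 to 4 and to 654, 5.22, 5.09 and 3262 in euglycemic libraries 1 to 4. Within the diabetic group the acinar sum was highest in replicate 1, as were the endothelial genes, and lowest in replicate 4, which had the second highest *Plvap*. Euglycemic replicate 4 had the highest acinar sum of all, with 6 of the 7 endothelial genes listed at 0. The part of acinar RNA in the endothelial values was not tested. The duct genes *Krt19* and *Spp1* rose in euglycemic libraries (2.29 and 2.14 against WT, adjusted p = 0.0149 for both), and *Spp1* rose also in diabetic libraries (1.76, adjusted p = 0.0327). *Gcg* (3.07, adjusted p = 0.0389), *Sst* (2.55, adjusted p = 0.0199) and *Ppy* (3.18, adjusted p = 0.0149) rose in euglycemic libraries, and *Ppy* in diabetic libraries (2.94, adjusted p = 0.0177). The diabetic minus WT differences of *Gcg* (2.60, adjusted p = 0.0658), *Sst* (2.0, adjusted p = 0.0504) and *Krt19* (1.5, adjusted p = 0.0815) did not pass, and none of these 3 genes was differentially expressed between diabetic and euglycemic libraries (−0.47, −0.55 and −0.79, adjusted p = 0.649, 0.446 and 0.212). The glucose transporter gene *Slc2a2* fell in both (−2.06 and −1.79, adjusted p = 0.00254 and 0.00712). Over the 17 other settings these calls held in 17 for *Cd79a* in both groups, 17 and 15 for *Slc2a2*, 13 and 15 for *Ppy* (diabetic and euglycemic), 13 for *Krt19*, 9 and 12 for *Spp1*, 9 for *Sst* and 6 for *Gcg*. Leaving out single libraries ended most of the lost calls, WT replicates 2 and 3 among them, and diabetic replicate 1 those of *Gcg* and diabetic *Spp1*. Without that library the diabetic minus WT differences were −3.14 for *Cd79a*, −2.03 for *Slc2a2* and 3.18 for *Ppy* (limma adjusted p = 0.00448, 0.0118 and 0.0219). Erythroid genes reached at most 2.46 FPKM in sum, in euglycemic replicate 4, where *Hba-a1* was 1.68 and *Hba-a2* 0.602 FPKM, their highest values. *Hba-a1* was 0.467 FPKM in diabetic replicate 1.

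*Vegfa* (chromosome 17 from 46016993 to 46032369, ENSMUSG00000023951) did not follow the endothelial genes. Its FPKM was 16.8, 17.9 and 31.4 in WT, 23.8, 25.8, 24.3 and 12.9 in diabetic, and 10.2, 13.6, 15.6 and 17.6 in euglycemic libraries. All 3 groups overlapped. The means were 22.0 ± 8.12 (SD, n = 3), 21.7 ± 5.95 (SD, n = 4) and 14.2 ± 3.12 (SD, n = 4). Diabetic replicate 1, the highest for each endothelial gene, was the fourth highest of the 11 libraries here, and leaving it out moved the diabetic minus WT difference in log2(FPKM + 1) from −0.01 to −0.07. The standard error of the first was 0.285. The sign of that difference changed in 4 of 12 alternatives that altered it (0.07 after rescaling to TPM, 0.05 with a replicate block, 0.21 without diabetic replicate 4 and 0.26 without WT replicate 3). The euglycemic minus WT difference was −0.56 (standard error 0.285) and the diabetic minus euglycemic difference 0.55 (standard error 0.264), or 0.50 without diabetic replicate 1. Diabetic replicates 1, 2 and 3 lay above every euglycemic library, and diabetic replicate 4 lay among them. With an *Esm1* of 1.84 and a *Plvap* of 14.0 FPKM, replicate 4 thus combined the lowest diabetic *Vegfa* with the second highest *Plvap*.

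**Figure D5:**
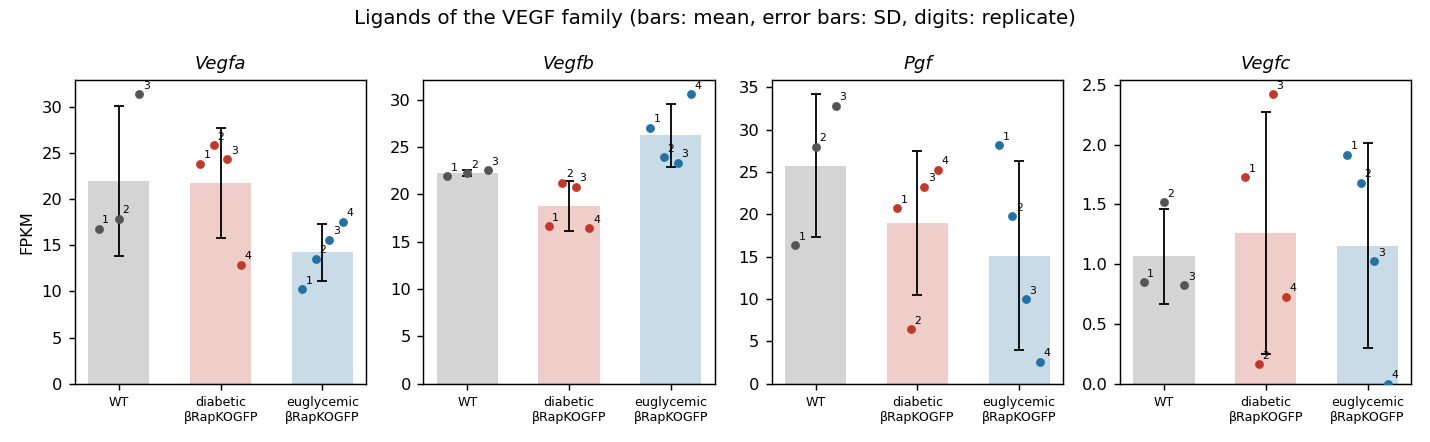
FPKM of Vegfa, Vegfb, Pgf and Vegfc (linear axes from 0) in WT (n = 3), diabetic (n = 4) and euglycemic (n = 4) libraries. Bars are means, error bars are SD, points are libraries and digits are replicates. The euglycemic libraries are lowest on average for Vegfa, at 14.2 FPKM, and highest for Vegfb, at 26.2 FPKM, and the groups overlap for Vegfa, Pgf and Vegfc.

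Among the other genes of the VEGF family, 7 were in the table, 3 of them in the limma fit, and none was differentially expressed in any comparison. At an unadjusted p under 0.05 there was 1, in diabetic against euglycemic libraries, where 20.6% of all genes fitted were. *Vegfb*, whose product binds VEGFR1, had 21.9, 22.2 and 22.5 FPKM in WT, 16.6, 21.2, 20.8 and 16.4 in diabetic, and 27.0, 23.9, 23.3 and 30.6 in euglycemic libraries. The 3 groups did not overlap, with diabetic libraries lowest and euglycemic libraries highest. The diabetic minus euglycemic difference was −0.46 in log2(FPKM + 1) (standard error 0.162, unadjusted p = 0.0135, adjusted p = 0.162 from limma), and −0.41 without diabetic replicate 1, and 7.42% of the genes fitted had every euglycemic library above every diabetic one. *Pgf*, for placental growth factor, another ligand of VEGFR1, had 16.4 to 32.8 FPKM in WT, 6.46 to 25.3 in diabetic and 2.59 to 28.1 in euglycemic libraries. *Vegfc*, the ligand of lymphatic endothelium, had 0.824 to 1.52, 0.163 to 2.42 and 0 to 1.91 FPKM. *Nrp1*, a co-receptor of VEGF-A, had 3.24 FPKM in diabetic replicate 1 and at most 0.735 elsewhere.

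Of 9 further genes of endothelial tip cells, the cells that lead a sprouting vessel, 4 entered the fit and none was differentially expressed. The unadjusted p was under 0.05 for 1 of the 4 in each comparison, against 11.9%, 13.9% and 20.6% of all genes fitted. *Igfbp3* had 0, 0.20 and 0 FPKM in WT, 8.42, 1.38, 1.09 and 0.681 in diabetic, and 0.127, 1.03, 0.299 and 0.0278 in euglycemic libraries. Its diabetic minus WT difference was 1.49 (SE 0.471, limma adjusted p = 0.206) and 0.93 without diabetic replicate 1. *Angpt2*, an antagonist ligand of the receptor Tie2, had 3.10 to 3.27 FPKM in WT, 1.5 to 2.90 in diabetic and 0.635 to 2.37 in euglycemic libraries. It was thus lower in every mutant library than in every WT library, as were 1.78% of the genes fitted, with differences of −0.33 (diabetic, adjusted p = 0.671 from limma) and −0.78 (euglycemic, adjusted p = 0.21), each with a standard error of 0.254. The first was −0.40 without diabetic replicate 1. *Dll4*, a Notch ligand of tip cells, had 1.76 to 3.50, 1.3 to 3.79 and 1.38 to 4.83 FPKM. *Pdgfb*, which recruits mural cells, had 0.556 to 0.894, 0.496 to 1.19 and 0.823 to 1.55 FPKM.

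The genes that sense oxygen and regulate *Vegfa* were described as well. Of 8 genes of hypoxia-inducible factor (HIF) and its hydroxylases 6 were fitted, and of 14 HIF targets 12 were, and none was differentially expressed. At an unadjusted p under 0.05 there were 0, 0 and 1 of the regulators and 2, 4 and 1 of the targets in diabetic against WT, euglycemic against WT and diabetic against euglycemic libraries, where 11.9%, 13.9% and 20.6% of all genes fitted were. *Egln2* and *Egln1*, which encode prolyl hydroxylases that mark HIF for degradation, had 20.5 to 27.2 and 13.5 to 15.8 FPKM in WT, 20.4 to 24.4 and 10.8 to 14.7 in diabetic, and 23.4 to 27.0 and 5.99 to 16.8 in euglycemic libraries. The targets *Aldoa*, a glycolytic enzyme, and *Bnip3*, a mitophagy receptor, had 72.0 to 105.8 and 81.9 to 113.8 FPKM in WT, 75.8 to 115.6 and 54.9 to 95.1 in diabetic, and 111.3 to 126.7 and 72.9 to 105.6 in euglycemic libraries. Of the 3 further lists, on angiopoietin and Notch genes (1 of 10 fitted), inhibitors of vessel growth (1 of 10) and basement membrane (2 of 8), none had a differentially expressed gene. At an unadjusted p under 0.05 there were 0, 1 and 1 genes of these lists in diabetic against WT, 0, 0 and 1 in euglycemic against WT and 0, 1 and 1 in diabetic against euglycemic libraries, beside the same shares of all genes. *Thbs1*, for thrombospondin, an inhibitor of vessel growth, had 15.8 FPKM in diabetic replicate 1, 1.06 to 1.54 in the other diabetic libraries, 0.0559 to 0.220 in WT and 0.0323 to 0.256 in euglycemic libraries. Its diabetic minus WT difference was 1.70 (SE 0.556, limma adjusted p = 0.222) and 0.98 without diabetic replicate 1. *Timp3*, for an inhibitor of matrix proteases that also blocks VEGFR2, had 5.43 FPKM in diabetic replicate 1 and at most 1.53 elsewhere. *Col4a1*, for basement membrane collagen, had 5.83 to 11.5, 4.57 to 9.21 and 2.38 to 6.33 FPKM, and *Lamc1*, for a laminin chain, 0.413 to 1.33, 1.31 to 2.21 and 0.628 to 0.984 FPKM. *Dll1* had 1.59 to 2.67, 1.04 to 2.03 and 0.891 to 3.13 FPKM, and *Notch1* 0.179 to 1.02, 0.559 to 1.07 and 0.349 to 0.702 FPKM.

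The fitted genes whose log2(FPKM + 1) ran most like each member over the 11 libraries are given as a description, since all values of a library share its depth and its cells. For *Plvap* they were *Sparcl1* (Pearson r = 0.979), *Nol8* (0.947), *Sparc* (0.937), *Llph-ps1* (0.921) and *Gria2* (0.921). *Sparc* and *Sparcl1* encode matrix proteins, and *Sparcl1* had 5.15, 1.10, 1.78 and 2.78 FPKM in diabetic libraries 1 to 4, at most 0.191 in WT and at most 0.603 in euglycemic libraries. For *Esm1* they were *Sorcs2* (0.931), *Msn* (0.926), *Lrrc8b* (0.918), *Sparcl1* (0.917) and *Inpp5f* (0.915). *Sorcs2*, for a sorting receptor of the VPS10 family, had 3.81, 3.97, 4.48 and 2.43 FPKM in diabetic libraries 1 to 4 and was not highest in replicate 1. Without diabetic replicate 1, r was 0.962 for *Sparcl1* with *Plvap* and 0.935 for *Sorcs2* with *Esm1*. For *Vegfa* they were *Spred2* (0.962), *Abhd2* (0.938), *Slc7a14* (0.925), *Fasn* (0.903) and *Mical2* (0.891), none of which is on the lists for *Esm1* and *Plvap*. *Spred2*, for an inhibitor of Ras signalling, had 0.852 to 1.43 FPKM in WT, 0.770 to 1.34 in diabetic and 0.60 to 0.856 in euglycemic libraries.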

How the data were processed

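RNA of GFP-positive cells was measured in 3 WT, 4 diabetic and 4 euglycemic βRapKOGFP libraries, grouped and numbered by the submitters' sample names. Per the labels and the study's methods, the deposited FPKM values were made by the authors against mm10. The methods name Tophat and Cufflinks and the submitters' processing notes name HISAT2 2.0.4, StringTie 1.3.0 and edgeR, and which of them made the values is not given in the sources used here. Of 34745 entries, 17 were duplicate symbols with the lower mean and were left out, which left 34728. The 478 entries without a symbol were kept under their gene identifier. Fits used limma 3.58.1 in R 4.3.3 (lmFit, eBayes with trend) on log2(FPKM + 1) over 11251 genes (3 or more of the 11 libraries at 1 FPKM or above), all in one fit without a replicate block. A gene counted as differentially expressed at a Benjamini-Hochberg adjusted p of at most 0.05 and 1.5-fold. Standard errors of genes below that minimum came from the fit without a filter. Limma stands in for Cuffdiff, which needs alignments. Depth was inferred from FPKM multiplied by length in 4490 genes with 1 exon and 500 bases or more, where 92.7 to 97.1% of low values (up to 20 fragments) were whole within 0.02. Fragments of genes with several transcripts assume the longest one. Gene places are from GENCODE vM21.

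The genes described, the gene lists and the markers were chosen with earlier results of these data known. Genes named are the members, *Rptor*, the differentially expressed genes of each list (up to 4) or else its highest genes (2 to 4), and the 5 genes most like *Esm1*, *Plvap* and *Vegfa*. Exceptions named after their values were seen are *Ins1*, the promoter genes' overlaps, and the single endothelial, stellate and leukocyte genes given for their levels. The result of a listed gene is not reported here. Alternatives were no filter, a pseudocount of 0.1, TPM, median-of-ratios scaling, only the groups compared, a replicate block and leaving out each library.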

Additional observations from a re-analysis of the deposited data

Results flagged for a closer look

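In 29 of 140 sets of 4 libraries, 1 library lay far from the other 3, where chance gives this in about 1 in 20 sets. Diabetic replicate 1 was that library in 14 sets and euglycemic replicate 4 in 6. Many of these genes share the same library, so the sets are not independent.

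Among the members, diabetic replicate 1 was far above the next diabetic library in *Pecam1* (1.35 FPKM against 0.285), *Kdr* (2.88 against 0.286) and *Flt1* (1.06 against 0.229). Euglycemic replicate 2 was the euglycemic library with *Cdh5* above 0, at 0.0169 FPKM. Diabetic replicate 4 was far below the others in *Vegfa* (12.9 against 23.8 FPKM) and in *Abhd2* (1.97 against 3.72), a gene that ran like *Vegfa*. In sum over genes, diabetic replicate 1 stood out for the 7 endothelial members (50.6 against 16.7 FPKM), all 37 endothelial genes (87.7 against 25.7) and mural genes (8.93 against 1.81).

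In the same library *Igfbp3* (8.42 FPKM), *Thbs1* (15.8), *Col4a1* (9.21), *Acta2* (2.87), *Col3a1* (3.83), *Hba-a1* (0.467), *Inpp5f* (12.2) and *Sparc* (11.5) were far above the other diabetic libraries. Diabetic replicate 3 was lowest in *Egln2* (20.4 FPKM) and *Cd79a* (0.199), and diabetic replicate 2 was highest in summed β-cell markers (206200 FPKM). Euglycemic replicate 4 was high in *Krt19* (16.5 FPKM), *Hba-a1* (1.68), *Hba-a2* (0.602) and summed erythroid markers (2.46), and low in *Msn* (0 FPKM) and *Gria2* (0.603). Euglycemic replicate 3 was high in *Dll1* (3.13 FPKM), *Dcn* (0.128) and *Col3a1* (0.0186).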

How the results depend on the processing

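The number of differentially expressed genes was 109 for diabetic against WT, 62 for euglycemic against WT and 1 for diabetic against euglycemic libraries. These numbers include members, which were chosen with their values known and whose calls are not reported. Nothing is therefore read from the 1 in the last comparison. The numbers were 22, 13 and 0 without a filter, 45, 20 and 0 with the replicate number as a block, and 17 and 6 in the last 2 comparisons with only the groups compared. A pseudocount of 0.1, TPM and the median of ratios each gave 0 in the last comparison. After rescaling to TPM, diabetic against WT was split into 62 higher and 35 lower genes, against 53 and 56, and the median of all genes in diabetic minus euglycemic moved to 0.121. Euglycemic against WT was split into 40 and 22 genes, and 35 and 15 after TPM. With each library left out in turn, the 3 numbers ranged from 23 (without WT replicate 2) to 209 (without euglycemic replicate 4), from 10 (without WT replicate 3) to 532 and from 0 to 380 (both without WT replicate 1). *Ramp2* was then the endothelial gene of the further list called in euglycemic against WT libraries, which took that count from 0 to 1 without WT replicate 1. Causes were not tested. Same-numbered libraries did not deviate together (mean r = −0.132 over 10 pairs, from −0.368 to 0.212), so the numbers were not taken to pair samples.

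The signs of *Esm1* and *Plvap* in diabetic against both other groups held in all alternatives run, with differences of 1.5 to 4.54 and 2.37 to 5.38. The lowest were those without diabetic replicate 1, and the highest were the ratio of mean FPKM for *Esm1* and a pseudocount of 0.1 for *Plvap*. Signs between euglycemic and WT libraries changed for *Esm1* without euglycemic replicate 3 (−0.003), and *Cdh5* came to 0 without euglycemic replicate 2. At these depths 3 fragments correspond to 0.0261 to 0.159 FPKM for the members, and many WT and euglycemic values lie below this. Intervals from fragment numbers would cover counting error only.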
